A study of Mus musculus with 96 samples.

Results

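The Chd5 block is the gene-dense stretch chr4:151250001-152350000 of the mm9 assembly, 1.1 Mb that lie inside an engineered deletion of mouse band 4E2. Its members are the HindIII restriction fragments whose end falls between these positions. They were chosen by position, and no read count entered the rule, but earlier results of these data were known. They numbered 239 of the 48320 fragments of chromosome 4. Contacts were measured by PE-4Cseq, a chromosome conformation capture assay. Ligation products of a chosen fragment, the viewpoint, are amplified and sequenced from both ends, so that each contact can be assigned to a parental chromosome. Mouse embryonic fibroblasts (MEFs) from crosses of 129S5SvEvBrd (129S5) with C57BL/6J were taken from embryos of day 13.5 and used at passage 4. The deletion, Df, sat on the 129S5 copy of chromosome 4 in MEF lines 129S5E71 (E71) and 129S5E98 (E98), whose intact C57BL/6J copy is named +DBl6. In the undeleted control lines 129S5E117 (E117) and 129S5E118 (E118), the 129S5 copy is named +129 and the C57BL/6J copy +Bl6. Each of the 12 viewpoints gave 1 library per line and chromosome, and the 72 libraries of +129, +Bl6 and +DBl6 are described here. Each genotype rests on 2 MEF lines, so that p-values measure the spread between these lines. Where both libraries of a group were combined, as set out below, the spread comes from the other groups alone. The Df chromosome lacks the block and served only as a background.

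In chromosome conformation capture, the frequency with which 2 fragments are ligated falls with the distance between them along the chromosome. On top of that decline, active and gene-rich chromatin tends to contact other gene-rich chromatin, and inactive chromatin tends to contact other inactive chromatin. Chd5, the gene the block is named after, encodes a chromatin-remodelling ATPase of the CHD family that is known as a tumour suppressor and is expressed mainly in neurons and testis.

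The block held 20 protein-coding genes of the mm9 annotation, or 18.2 per Mb, against 8.88 per Mb over the sequenced chromosome, 7.30 per Mb in the 1.1 Mb before it and 6.36 per Mb in the 1.1 Mb after it. All of them began within the first part of the block, from the start of Dnajc11 at 151307800 to the end of Nphp4 at 151937292, and the last 0.413 Mb held no other protein-coding gene. GC content was 51.1% in the block, 48.7% in the interval before it, 49.5% in the interval after it and 42.3% over the chromosome. HindIII fragments of the block were longer, with a median of 3394 bases against 2133. Of the 239 fragments, 6 were never captured in the 72 libraries (2.51%), against 23.5% of all fragments of the chromosome. The share was 0.633% in the interval before the block and 2.50% in the interval after it, so that it was low there too. The 6 fragments had a median length of 242.5 bases.

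The fragments that the results turn on are shown by the mm9 sequence of their HindIII sites, read on the plus strand from 30 bases before to 30 bases after the site. Capitals mark the site itself, since reads of captured fragments begin there. Viewpoints 5 and 6 are the only viewpoints inside the block. Viewpoint 5 is the fragment chr4:151607155-151611182, whose ends lie in introns of Acot7, and viewpoint 6 is the fragment chr4:152142160-152145304, which lies between genes.
Viewpoint 5, left end (chr4:151607119-151607184): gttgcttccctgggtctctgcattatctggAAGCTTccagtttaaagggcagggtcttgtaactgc
Viewpoint 5, right end (chr4:151611147-151611212): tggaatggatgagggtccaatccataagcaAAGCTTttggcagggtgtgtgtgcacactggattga
Viewpoint 6, left end (chr4:152142124-152142189): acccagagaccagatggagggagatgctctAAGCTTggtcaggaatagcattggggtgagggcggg
Viewpoint 6, right end (chr4:152145269-152145334): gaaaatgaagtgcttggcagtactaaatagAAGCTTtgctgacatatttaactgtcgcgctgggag

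The next sites bound the block fragments captured most widely from viewpoints outside the block. The fragment chr4:151544093-151558136 holds the start of Acot7 and was captured in 50 of 55 libraries. The fragment chr4:151703894-151717809 holds the end of Rpl22 and the start of Chd5 and was also captured in 50. The Espn fragment chr4:151498562-151504133 was captured in 49. The Dnajc11 fragment chr4:151314036-151321051 and the Phf13 fragment chr4:151366891-151367934 were each captured in 47, and 4 further fragments reached the same number. The left end of the Acot7 fragment lies between genes, and the other sites shown lie in introns of the genes named.
Acot7 start fragment, left end (chr4:151544057-151544122): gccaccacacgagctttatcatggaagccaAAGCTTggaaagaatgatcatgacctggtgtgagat
Acot7 start fragment, right end (chr4:151558101-151558166): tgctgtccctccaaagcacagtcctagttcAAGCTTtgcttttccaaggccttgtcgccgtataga
Chd5 start fragment, left end (chr4:151703858-151703923): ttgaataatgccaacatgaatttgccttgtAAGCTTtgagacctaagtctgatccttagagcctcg
Chd5 start fragment, right end (chr4:151717774-151717839): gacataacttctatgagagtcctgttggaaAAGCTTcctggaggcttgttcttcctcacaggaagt
Espn fragment, right end (chr4:151504098-151504163): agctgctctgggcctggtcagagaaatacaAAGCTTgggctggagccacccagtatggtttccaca
Dnajc11 fragment, right end (chr4:151321016-151321081): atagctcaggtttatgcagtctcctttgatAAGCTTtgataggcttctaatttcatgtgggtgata
Phf13 fragment, right end (chr4:151367899-151367964): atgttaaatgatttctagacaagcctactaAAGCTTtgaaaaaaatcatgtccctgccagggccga

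The Chd5 start fragment also carries the promoter of the gene the block is named after. The 250 bases before its annotated start, on the plus strand, are shown with each CpG dinucleotide in capitals.
Chd5 promoter (chr4:151712510-151712759): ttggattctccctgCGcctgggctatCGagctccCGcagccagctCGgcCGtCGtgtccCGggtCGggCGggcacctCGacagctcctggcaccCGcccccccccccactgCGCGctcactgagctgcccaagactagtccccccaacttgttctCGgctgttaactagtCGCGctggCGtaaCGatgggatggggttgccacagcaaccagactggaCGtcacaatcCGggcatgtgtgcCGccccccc
It held 21 CpG dinucleotides and was 67.2% GC. The same window before the 20 coding genes of the block held between 2 and 38 CpG dinucleotides, with a median of 16, so that 100% of these windows held at least 1. These are letters of the reference, and a fragment of this length cannot say which of its bases were in contact with a viewpoint.

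Depth and independence of the libraries limit what can be compared. The 72 libraries held 444 to 3969613 reads on chromosome 4, with a median of 950737, and the smallest were the 2 libraries of line E117 at viewpoint 10. The other 70 held at least 64058 reads and captured 1259 to 8360 fragments, where a captured fragment is one with at least 1 read. In 6 groups the 2 replicate libraries shared captured molecules, with a correlation of log reads over shared distant fragments above 0.9. These were +DBl6 at viewpoints 4, 6, 7 and 8, and +129 and +Bl6 at viewpoint 9, and the pair was combined into 1 library. Some pairs from different groups correlated above 0.5 as well. At viewpoint 11, +DBl6 of E71 and +Bl6 of E117 correlated at 0.720, and +129 of E117 and Df of E71 at 0.678. At viewpoint 10, +DBl6 of E98 and +Bl6 of E118 correlated at 0.580, and +129 of E118 and Df of E98 at 0.591. At viewpoint 7, +DBl6 of E71 and Df of E98 correlated at 0.546. Values from these libraries are not independent between groups. Reads carried no molecular identifiers, so that intervals given for shares cover counting error only.

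At the viewpoints outside the deletion, the Df chromosome gives a background for the block. At viewpoints 1, 2, 11 and 12, the 8 Df libraries placed 0.0245% to 0.178% of their reads outside the viewpoint zone in the block. The 24 libraries of intact chromosomes at the same viewpoints placed 0.188% to 3.37% there. Df libraries of viewpoints 3 to 10, fragments that Df lacks, still held 845 to 31156 reads. At viewpoint 10 the Df library of E98 held 31156 against 83156 in +DBl6 of that line, and it placed 2.01% of its reads in the block against 2.35%. Reads were thus assigned to Df where that chromosome has no viewpoint, and the values of intact chromosomes were not corrected for the reverse. The lowest intact library was the one labelled +129, line E117, at viewpoint 11, with 0.188% (Wilson 95% interval 0.173% to 0.205%). It lay next to the Df libraries of that viewpoint, at 0.138% and 0.178%, and far below the +129 library of line E118, at 1.40%. It is the library that shared molecules with Df of E71, and whether it holds mostly Df molecules was not tested. Values of viewpoint 11 that rest on it are also given without it, except those of the neighbouring intervals.

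Reads fell into the block from every viewpoint, with the highest shares from viewpoints inside it or next to it. The zone of 20 kb around each viewpoint was left out of all shares. From viewpoint 5 in Acot7, which encodes an acyl-CoA thioesterase, +129 libraries of E117 and E118 placed 33.6% and 39.0% of their reads in the rest of the block, +Bl6 placed 33.1% and 37.4%, and +DBl6 of E71 and E98 placed 39.1% and 44.8%. Both +DBl6 values lay above all others, the lower by little. From viewpoint 6 in the gene-free part, the shares were 28.6% and 28.6% for +129, 28.1% and 27.3% for +Bl6, and 31.6% for the combined +DBl6 library. The single +DBl6 value there was the highest.

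Among viewpoints outside the block, the closest was viewpoint 7, which starts 0.131 Mb after it. There +129 placed 13.2% and 14.4% of reads in the block, +Bl6 placed 12.1% and 12.8%, and +DBl6 placed 13.1%. Viewpoint 4 in Camta1, which encodes a calmodulin-binding transcription activator, lies 0.259 Mb before the block, and its libraries placed 4.95% to 5.90% there. Viewpoint 3 in Vamp3, a vesicle fusion protein, lies 0.817 Mb before the block and placed more, 6.68% to 7.89%. Every library of viewpoint 3 lay above every library of viewpoint 4, although viewpoint 4 is the nearer of the 2. On the other side, viewpoint 8 placed 10.3% to 12.9% in the block from 0.572 Mb away, and viewpoint 9 placed 6.24% to 7.68% from 1.08 Mb.

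The most distant viewpoints placed smaller shares. Viewpoint 12 in Agrn, the gene of the extracellular matrix protein agrin, placed 2.23% to 3.37% in the block from 3.20 Mb away. Viewpoint 10 in Prdm16, a zinc finger transcription factor, placed 2.33% to 2.65% from 1.59 Mb in the 4 libraries other than E117. Viewpoint 1 in Masp2, a complement protease, placed 1.48% to 2.56% from 3.27 Mb. Viewpoint 11 in a fragment over Gnb1 and Nadk placed 0.188% to 1.49% from 2.58 Mb, and viewpoint 2 in Ctnnbip1, an inhibitor of beta-catenin, placed 0.254% to 0.694% from 2.33 Mb. Viewpoints 1, 10 and 12 overlapped in their shares, and so did viewpoints 2 and 11. Viewpoint 1 exceeded viewpoint 2 in every library although it is farther from the block.

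**Figure D1:**
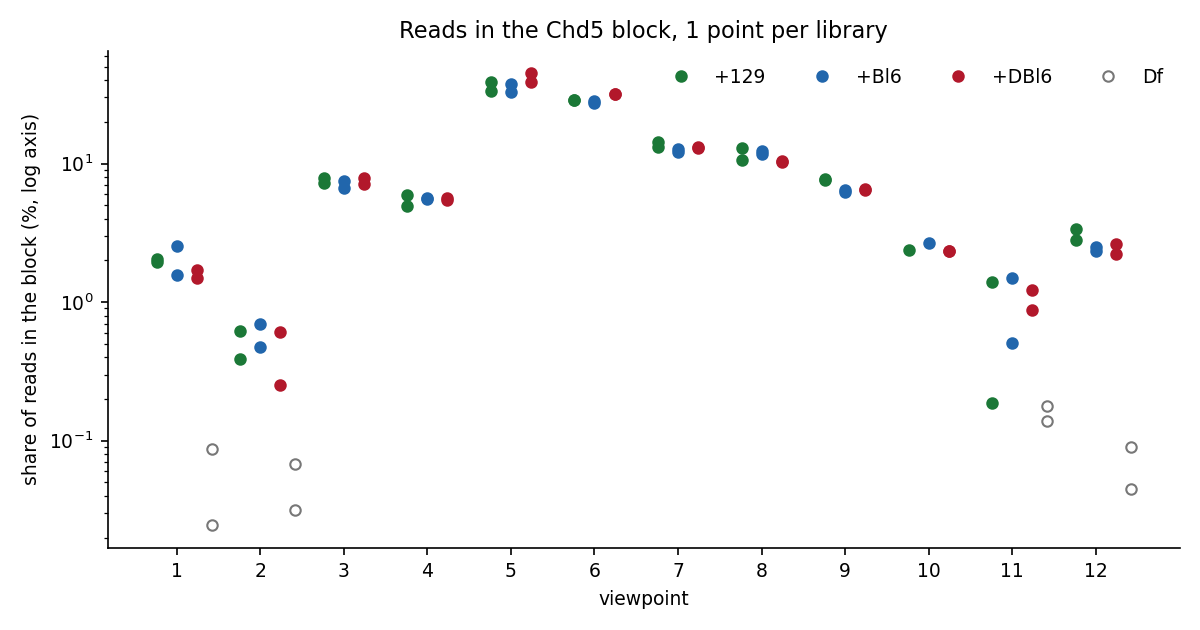
Share of reads in the block for each library, in percent on a log axis, by viewpoint; filled points are libraries of the intact chromosomes and open points the Df libraries of viewpoints 1, 2, 11 and 12, and the nearly empty E117 libraries of viewpoint 10 are left out. Shares range from 0.188% at viewpoint 11 to 44.8% at viewpoint 5, and the Df points lie at 0.178% or below.

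The number of captured fragments showed how completely the block was sampled. From viewpoint 5, 88.4% to 93.1% of the 232 block fragments outside the zone were captured in each library. From viewpoint 9 the combined +129 and +Bl6 libraries and those of +DBl6 captured 73.2% to 92.1% of the 239 fragments. From viewpoint 2, the share was 14.6% to 30.5%, the lowest of all viewpoints other than the nearly empty libraries. At viewpoint 5, 205 fragments were captured in both +Bl6 libraries, which was 96.7% of those in E117 and 96.2% of those in E118. At viewpoint 2, the same overlap was 27 fragments, 54.0% of those in E117 and 37.0% of those in E118. In the 70 libraries, the best captured fragment alone held 3.89% to 38.5% of the block reads of its library.

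The neighbouring intervals of the same size lie at other distances and are given as a description. From viewpoint 5, the block held a median of 38.2% of reads outside the zone, the interval before it 4.59% and the interval after it 4.64%. From viewpoint 6, the interval after the block held a median of 30.3% of reads and the block 28.6%, against 2.91% in the interval before. From viewpoint 12, which lies beyond the interval after the block, that interval held 3.19% and the block 2.56%. From viewpoint 1 the interval before the block held 2.77%, the block 1.83% and the interval after it 0.646%.

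The block was also compared with its mirrored interval, at the same distance on the other side of the viewpoint. This was done for viewpoints 1 to 4 and 7 to 9. Viewpoints 10, 11 and 12 lie too near the end of the chromosome for one. Viewpoints 5 and 6 lie inside the block. There its stretch after the viewpoint was set against the equally long stretch before it. The value is the ratio of captured fragments per fragment, averaged over the alleles of a line and then over MEF lines, with lines that shared molecules counted as 1. At viewpoint 3, 1.12 times as many fragments were captured in the block (log2 0.16 ± 0.19, SD, n = 4 lines, higher in 4). At viewpoint 8 the ratio was 1.18 (log2 0.23 ± 0.11, SD, n = 3) and at viewpoint 9 it was 1.27 (log2 0.35 ± 0.27, SD, n = 3). At viewpoint 7 it was 0.843 (log2 -0.25 ± 0.11, SD, n = 3, lower in 3). The lines all pointed one way at each of these viewpoints. The exact sign-flip test cannot go below a p of 0.13 with 4 lines or 0.25 with 3, and it stood at that bound. At viewpoint 3, however, the +Bl6 library of E118 pointed the other way (log2 -0.04). With at least 5 reads per fragment 3 of 4 lines were higher there, and without E71 the ratio was 1.05.

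Counted in reads per fragment, the differences from the mirrored interval were larger. The block held 2.79 times the reads of its mirror at viewpoint 3, 2.59 times at viewpoint 8 and 2.30 times at viewpoint 9. It held 0.738 times the reads of its mirror at viewpoint 7. At viewpoint 4 the direction turned with the quantity counted: 1.1 times as many captured fragments, but 0.308 times the reads. At viewpoint 1 the block held 3.55 times the captured fragments and 5.71 times the reads. The mirrored interval of viewpoint 1 was poorer in GC, with a mean of 42.2% per fragment against 50.7%, and 79.8% of its fragments were captured in any of the 96 libraries against 97.5% in the block. Restricted to fragments captured in any library, the ratio at viewpoint 1 was 2.91. At viewpoint 2 only 14.2% of the mirrored fragments were ever captured, and no ratio is drawn from it.

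The block was also divided at the end of its last gene, a boundary taken from the annotation after the values were seen, and where contacts change most was not tested. The gene-bearing part, the fragments that end before the end of Nphp4, reached 151925466 and held 139 fragments. The gene-free part after it held 100. Its first fragment starts at 151925467 and holds the last stretch of Nphp4, up to 151937292. That fragment is counted as gene-free in all ratios below. From viewpoint 11, reads per kb in the gene-bearing part were 9.35 and 18.0 times those in the gene-free part in +129, 12.4 and 5.83 times in +Bl6, and 14.9 and 18.6 times in +DBl6. From viewpoint 1, they were 4.05 and 10.4 times in +129, 9.28 and 16.9 times in +Bl6, and 8.33 and 10.7 times in +DBl6. All 12 of these libraries captured the gene-bearing part more.

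The viewpoints before the block lie nearer to its gene-bearing part. The median ratio over libraries was 5.02 for viewpoint 2, 10.9 for viewpoint 3 and 3.38 for viewpoint 4. For viewpoints 7 to 12 the gene-free part is the nearer one. The ratio was 0.129 at viewpoint 7 and 0.214 at viewpoint 8, where the nearer part held more reads in every library. It was 0.985 at viewpoint 9 and 0.680 at viewpoint 10. At viewpoint 9 the farther, gene-bearing part held more reads per kb in +129 (1.14) and +Bl6 (1.23), each 1 combined library. It held fewer in +DBl6 of E71 (0.717) and E98 (0.833), and this difference was not tested. At viewpoints 11 and 12, with medians of 13.6 and 1.67, the farther part held more reads per kb in 6 of 6 libraries each. The interval before the block, farther still and with 7.30 coding genes per Mb, held a median of 1.46% of reads from viewpoint 11, against 1.05% in the block. From viewpoint 12 it held 1.86% against 2.56%. The mean log2 ratio was 0.64 ± 0.25 (SD, n = 4 lines) at viewpoint 12, with an exact sign-flip p of 0.13, the smallest that 4 lines allow. At viewpoint 11, with E71 and E117 counted as 1 line since their libraries shared molecules, it was 3.72 ± 0.45 (SD, n = 3, exact p 0.25, the smallest possible). Without the library labelled +129 of E117 it was 3.78 ± 0.43, with a median ratio of 14.9.

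Viewpoint 5 lies in the gene-bearing part and viewpoint 6 in the gene-free part, so that each is nearer to its own part. From viewpoint 5, the gene-bearing part held 95.7% to 97.3% of block reads, and 98.5% of its fragments were captured in the median library against 81.5% in the gene-free part. From viewpoint 6, the gene-bearing part held 11.8% to 15.2% of block reads, and 79.1% of its fragments were captured against 92.0%. Viewpoint 11 captured a median of 54.3% of the fragments in the gene-bearing part and 11.5% of those in the gene-free part, or 59.7% and 13% without the library labelled +129 of E117. The gene-bearing and the gene-free part had median fragment lengths of 3572 and 3213.5 bases and GC contents of 52.2% and 49.4%, and the part of these properties in the difference was not tested.

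**Figure D2:**
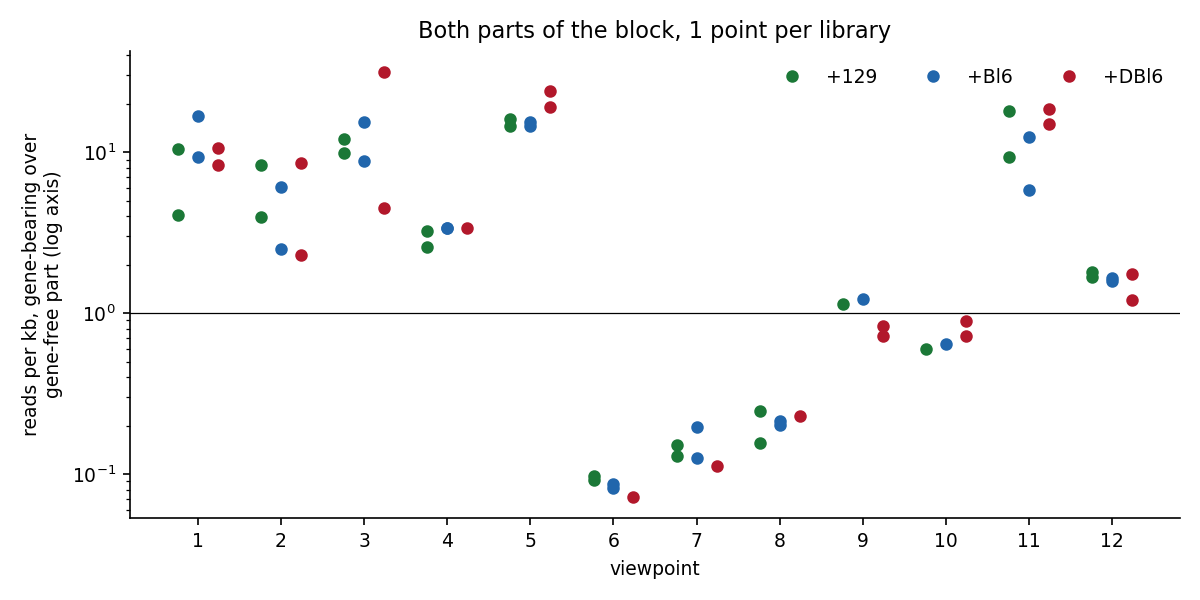
Ratio of reads per kb in the gene-bearing part of the block to those in its gene-free part, on a log axis, by viewpoint, with 1 point per library and the line at equal values, without the nearly empty E117 libraries of viewpoint 10. Points lie above 1 at viewpoints 1 to 5, 11 and 12, below 1 at viewpoints 6, 7, 8 and 10, and on both sides at viewpoint 9.

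Windows of 80 kb resolved the profile. From viewpoint 7, the window across the end of Nphp4, chr4:151920001-152000000, held a median of 17.4% of block reads, and the window with the start of Chd5, chr4:151680001-151760000, held 2.91%. Of the 24 fragments of the former, 20 overlap no protein-coding gene. From viewpoint 9, the same 2 windows held 18.2% and 8.24%. From viewpoint 11, the window across the end of Nphp4 held 2.49% and the Chd5 window 8.86%, and the window with Thap3, Phf13, Klhl21, Zbtb48, Tas1r1 and Nol9, the farthest but 1 from this viewpoint, held the highest median, 16.3%. Without the library labelled +129 of E117 these medians were 3.03%, 9.54% and 17.1%. From viewpoint 3 that window held 24.7% and from viewpoint 1 it held 20.3%, again the highest of the 13 windows. From viewpoint 7 it held 0.109%. In 1 library, the one labelled +129 of line E117 at viewpoint 11, the window with Plekhg5, Tnfrsf25 and Espn held 51.7% of block reads.

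**Figure D3:**
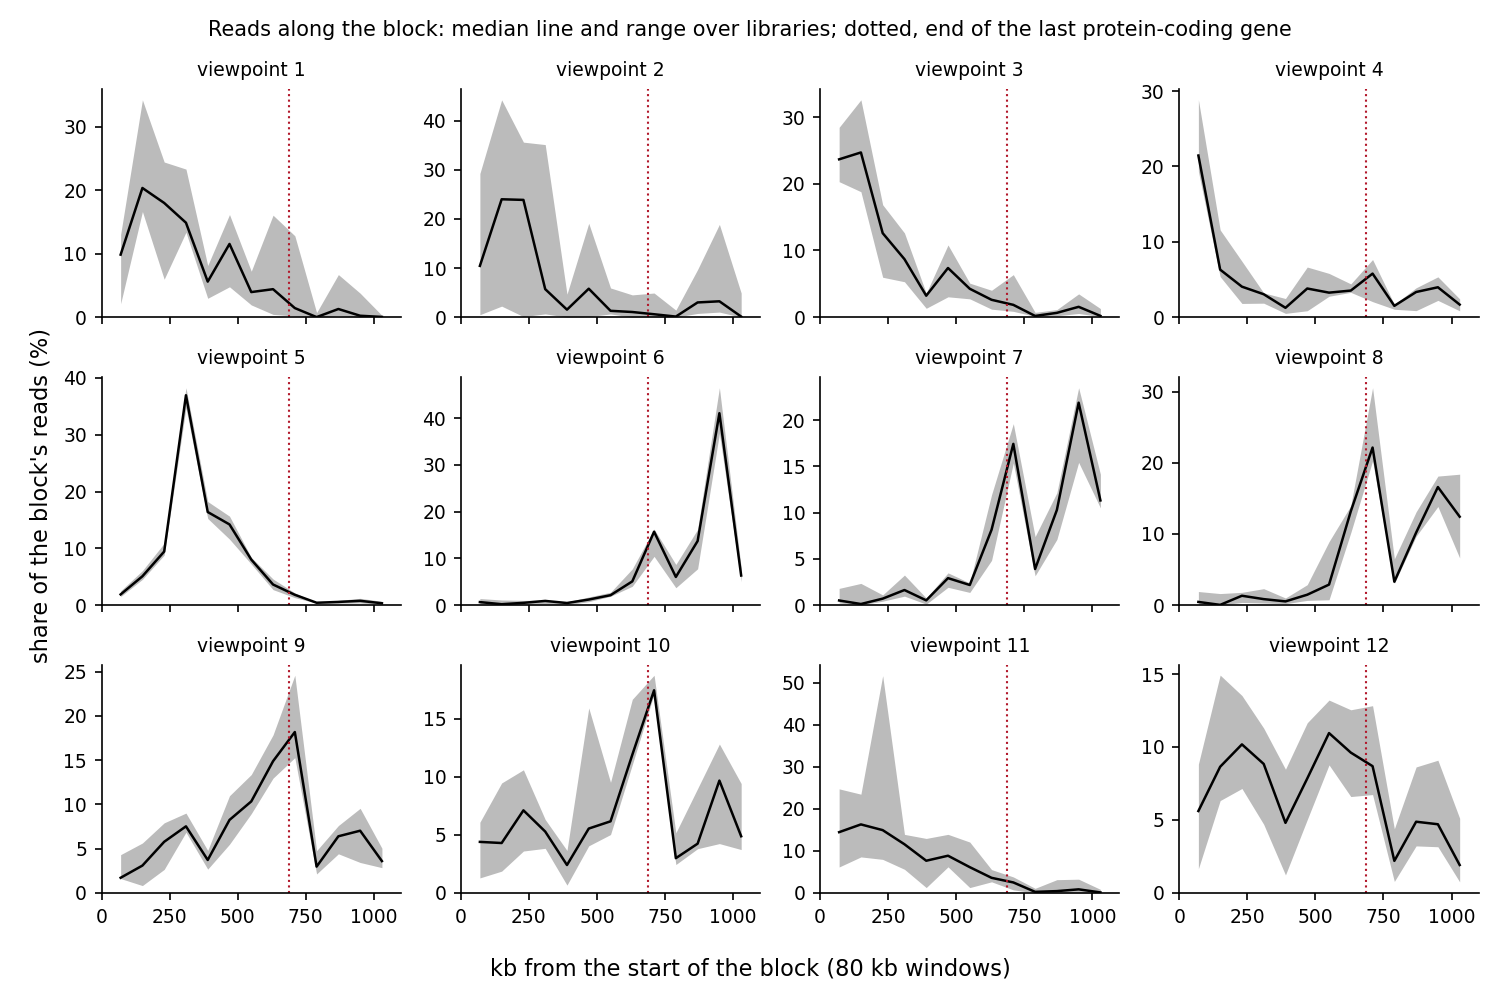
Share of the block's reads in each 80 kb window, in percent, against the distance in kb from the start of the block, for each viewpoint; the line is the median and the band the range over libraries, and the dotted line marks the end of the last protein-coding gene. The profiles of viewpoints 1, 3 and 11 fall toward the right and hold medians under 1.6% in each of the last 4 windows, while viewpoint 7 holds 3.90% to 21.9% there.

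Captures of the 20 protein-coding genes were counted over 53 libraries of the 10 viewpoints outside the block, without E117 of viewpoint 10. The median library captured 61.1% of all block fragments, 69.8% of those in the gene-bearing part and 55.0% of those in the gene-free part. Fragments that span several genes count for each of them, and small genes lie on 1 to 3 fragments, so that their values move in large steps.

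Of the genes for transcription and chromatin, Chd5 overlapped 5 fragments, and the median library captured 80% of them. Hes2 and Hes3, which encode repressors of the basic helix-loop-helix family, lay on 1 fragment each, captured in 37 and 39 libraries of 53. Thap3, a THAP domain protein, also lay on 1 fragment, which was captured in 27. For Phf13, which encodes a chromatin reader with a PHD finger, the median was 66.7% of 3 fragments, and for Zbtb48, a zinc finger protein of telomeres, it was 100% of 2. Camta1 lies outside the block.

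Among genes of receptors, channels and signalling, Kcnab2, a potassium channel subunit, had a median of 78.9% of its 19 fragments captured. Plekhg5 had 81.8% of 11, and Rnf207, a RING finger protein, had 80% of 5. Gpr153, an orphan G protein-coupled receptor, had 66.7% of 3. Tnfrsf25, a death receptor of the tumour necrosis factor family, lay on 1 fragment that was captured in 45 libraries, and the umami taste receptor gene Tas1r1 had a capture in 46. Of the enzymes, Acot7 had 57.7% of its 26 fragments captured and Icmt, which methylates prenylated proteins, had 87.5% of 8.

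Nol9, a kinase of ribosomal RNA processing, had a median of 100% of 3 fragments captured, and Rpl22, a ribosomal protein, had 66.7% of 3. The genes of cytoskeleton, cilium and mitochondrion were Nphp4 of the ciliary transition zone with 70.6% of 17 fragments, the actin bundler Espn with 63.6% of 11, the mitochondrial chaperone Dnajc11 with 61.5% of 13, and Klhl21, an adaptor of a ubiquitin ligase in mitosis, with 100% of 2. The 5 groups of genes overlapped in these medians. The lowest was that of Acot7 in the middle of the gene-bearing part.

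The fragments with the annotated gene starts varied more. The Chd5 and Acot7 start fragments were captured in 50 of 55 libraries each, that of Plekhg5 in 47, and those of Nol9, Tnfrsf25 and Espn in 45 each. The start fragment of Rpl22, chr4:151696241-151701598, was captured in 11, and a single fragment, captured in 39, separates it from the Chd5 start fragment. The start fragments of 16 of the 20 genes were captured in more libraries than the median block fragment, which reached 32. All of them lie in the gene-bearing part, whose median fragment was captured in 37 libraries, against 28 in the gene-free part. The 20 genes share 18 start fragments, with a median of 39.5. These fragments were also longer, with a median of 10814 bases against 3394. Over the 239 fragments, the number of capturing libraries had a Spearman correlation of 0.21 with fragment length and 0.20 with GC content, both across fragments that share libraries. Of the 239 fragments, 160 were captured in over 50% of the 55 libraries and 8 in none.

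The Chd5 start fragment was captured from every viewpoint but not in every library. It was found in 5 of 6 libraries at viewpoint 1 and in 4 of 6 at viewpoint 2. At viewpoint 10, where the E117 libraries were nearly empty, it was found in 4 of 6. From viewpoint 5 it was captured in 6 of 6 libraries and held a median of 2.78% of block reads. From viewpoint 11 it was captured in 6 of 6 with a median of 4.77% (5.48% without the library labelled +129 of E117), and from viewpoint 9 in 4 of 4 with 3.27%. From viewpoint 7 it was captured in 5 of 5 and held 0.799%. The Phf13 fragment held a median of 10.3% of block reads from viewpoint 2, 9.55% from viewpoint 3 and 6.79% from viewpoint 11 (7.77% without that library). It held 0.744% from viewpoint 5 and 0.750% from viewpoint 9, was captured in every library of these 5 viewpoints, and was found in 5 of 6 libraries of viewpoint 12 and 2 of 5 of viewpoint 8.

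The first comparison asks whether contacts of the intact homologue differ in cells that carry the deletion, by setting +DBl6 against +Bl6. In edgeR's quasi-likelihood test on windows of 1.1 Mb, with the block as 1 window, the block was called at 0 of 12 viewpoints with a Benjamini-Hochberg adjusted p under 0.05, and 0 of 12 had an unadjusted p under 0.05. Of all 1619 windows of the chromosome over the 12 viewpoints, 0% passed, and the unadjusted p was under 0.05 in 102. DESeq2 gave 0 calls of the block as well, against 2.78% of all windows. The smallest adjusted p was 0.854, at viewpoint 6, where the log2 change was 0.40 with a standard error of 0.23. At viewpoint 6 +DBl6 is 1 combined library, so that the spread came from the control chromosomes alone. The widest approximate 95% interval, taken from the standard error under a normal distribution, was at viewpoint 11. It ran from -1.24 to 1.46 on the log2 scale, wider than a 2-fold difference either way.

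The direction of these estimates depended on the scaling. With TMM scaling, the log2 change of the block was above 0 at 11 of 12 viewpoints and ranged from -0.04 to 0.76. With scaling to total reads it was above 0 at 6 of 12 and ranged from -0.43 to 0.25. Total reads shifted the median of all windows to between -0.82 and -0.00 across viewpoints, against -0.18 to 0.07 with TMM. In shares of reads, 2 libraries of each group could be compared at 7 viewpoints, and the groups did not overlap at 2 of these, higher in +DBl6 at viewpoint 5 and lower at viewpoint 10, where 1 +Bl6 library was nearly empty. Over all windows tested in these viewpoints, 30.3% did not overlap. The exact permutation p was 0.33 at both, the smallest that 2 libraries against 2 allow.

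**Figure D4:**
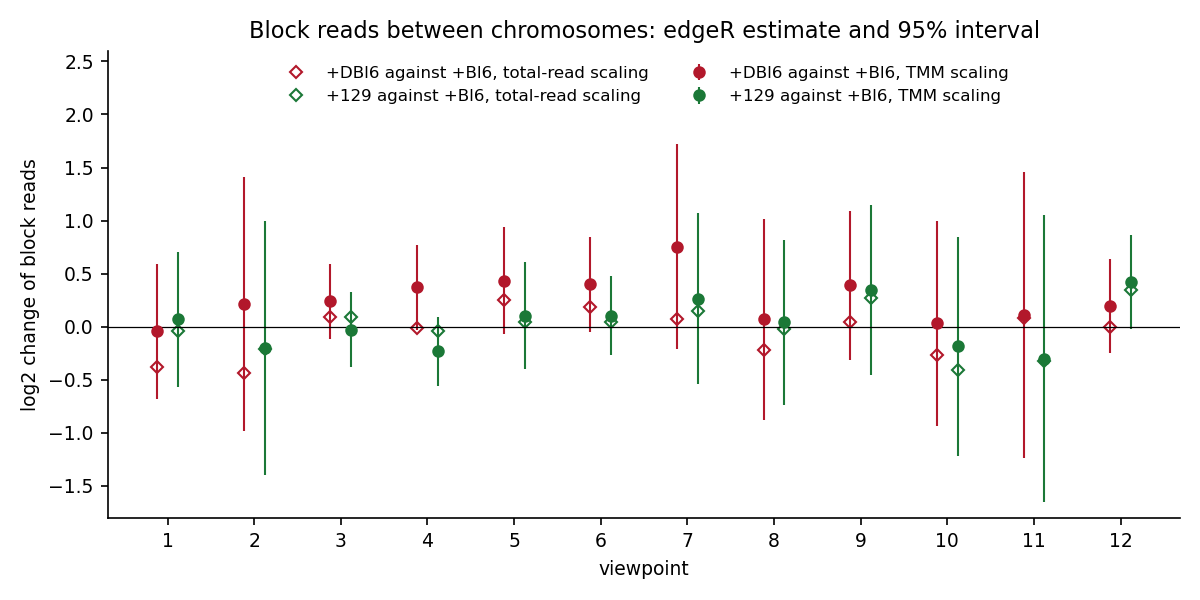
Log2 change of block reads at each viewpoint for +DBl6 against +Bl6 and +129 against +Bl6. Filled points are edgeR estimates with TMM scaling, and open diamonds are the estimates with total-read scaling. Bars are approximate 95% intervals from the standard error under a normal distribution, which can be narrower than those of the test. Every interval crosses 0, and TMM places 11 of 12 +DBl6 estimates above 0 where total reads place 6.

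Captured fragments gave another picture from reads. The share of captured fragments that lay in the block was higher in both +DBl6 libraries at 5 of 7 viewpoints and lower at 0, against 34.8% of all windows that did not overlap. At viewpoint 3, the shares were 4.77% and 2.66% in +DBl6 and 2.65% and 2.21% in +Bl6, while the shares of reads overlapped. The +DBl6 library of E71 had captured 2979 fragments outside the zone there and that of E98 6912, against 5738 and 8098 in +Bl6. The part of this difference in the shares was not tested. With captured fragments in place of reads, edgeR called the block at 1 viewpoint, viewpoint 4, with a log2 change of 0.81 and an adjusted p of 5.50e-05, against 0.323% of all windows in that fit. There +DBl6 is 1 combined library. It captured 72.8% of the block fragments, against 77.4% and 73.2% in +Bl6. Before combining, the +DBl6 libraries of E71 and E98 had captured 2759 and 2531 fragments outside the zone, against 4845 and 4753 in +Bl6. The part of this difference in the call was not tested.

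At viewpoint 5 the reads of +DBl6 and +Bl6 did not overlap. Its share of reads was 39.1% in +DBl6 of E71 against 33.1% in +Bl6 of E117, which were purified with the same kit, a ratio of 1.18. It was 44.8% in +DBl6 of E98 against 37.4% in +Bl6 of E118, both purified with beads, a ratio of 1.2. Both ratios within a purification batch were thus close to each other, and the means differed 1.19-fold. Outside the zone, +DBl6 of E71 had 222356 of its 534666 reads and +DBl6 of E98 683791 of 2716396. +Bl6 of E117 had 557923 of 721401 and +Bl6 of E118 591837 of 1277616. In each batch +DBl6 thus had the smaller part of its reads outside the zone. Between the +Bl6 libraries, E118 had the smaller part and the higher share. The part of this difference in the shares was not tested. The edgeR estimate for the whole block was 0.43 on the log2 scale with a standard error of 0.26 and an adjusted p of 0.861. Without line E117 the block was called with a log2 change of 0.27, and without line E118 with 0.62, in fits that leave 1 +Bl6 library and called 0.182% and 0.476% of all windows.

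In windows of 80 kb, the same comparison called 0 of 149 windows of the block over 12 viewpoints, against 0.151% of all 9964 windows, and the unadjusted p was under 0.05 in 15 of the 149 block windows, against 6.15% of all windows. Taking the purification batch as a replicate block called 4 of 84 block windows in the 7 viewpoints it could be fitted to, all at viewpoint 5 and all higher in +DBl6, against 0.159% of 6288 windows. The same libraries without that term gave 0, against 0.0477% of all windows, with 3 block windows at an unadjusted p under 0.05 against 4.90% of all. The replicate block with total-read scaling also gave 0 windows of 80 kb in the block, against 0.0795% of all, with 7 at an unadjusted p under 0.05 against 5.10% of all. It called the whole block at viewpoint 5, against 0.315% of all 952 windows of 1.1 Mb, with a log2 change of 0.25 and an edgeR adjusted p of 9.02e-05. DESeq2 without the replicate block called 2 block windows of 80 kb, both at viewpoint 9, against 4.14% of all windows.

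The 4 windows lie side by side from 151440001 to 151760000, around viewpoint 5. At this viewpoint, deviations of same-batch +DBl6 and +Bl6 libraries from their group means correlated at only 0.065. The first, with Plekhg5, Tnfrsf25 and Espn, held 4.26% and 4.2% of the reads of the +DBl6 libraries of E71 and E98, 3.13% and 3.45% in +Bl6 of E117 and E118, and 2.96% and 4.17% in +129. The values of +DBl6 lay above all control values, though by little over +129 of E118. With the replicate block, its log2 change was 0.51 with a standard error of 0.11 (edgeR adjusted p 0.00693), and 0.37 with total-read scaling (adjusted p 0.733).

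The second window, with the end of Espn, Hes2 and the first part of Acot7, held 14.3% and 16.7% in +DBl6, 11.5% and 14.1% in +Bl6 and 11.7% and 14.9% in +129. The third, with the rest of Acot7, Gpr153, Hes3 and Icmt, held 5.96% and 8.17% in +DBl6, 5.50% and 6.42% in +Bl6 and 5.42% and 6.00% in +129. In the second window +DBl6 lay above both +Bl6 libraries but not above +129 of E118, and in the third +DBl6 of E71 lay below +Bl6 of E118. In both windows +DBl6 exceeded +Bl6 within each purification batch. Their log2 changes with the replicate block were 0.43 and 0.38, with edgeR adjusted p of 1.53e-08 and 0.0125. With total-read scaling they were 0.28 and 0.24, with adjusted p of 0.228 and 0.957.

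The last, with the end of Icmt, Rnf207, Rpl22 and the start of Chd5, held 6.12% and 6.76% in +DBl6, 4.93% and 4.34% in +Bl6 and 4.53% and 5.00% in +129. Both +DBl6 values lay above all 4 control values. The ratio of +DBl6 to +Bl6 was 1.24 in the kit batch and 1.56 in the bead batch. Its log2 change was 0.63 with a standard error of 0.23 without the replicate block (edgeR adjusted p 0.658), and 0.62 with a standard error of 0.10 with it (edgeR adjusted p 3.26e-07). With total-read scaling as well it was 0.47 (edgeR adjusted p 0.0773). DESeq2 gave an adjusted p of 0.0556 for this window. The windows farther from viewpoint 5 did not pass the test in any of these fits, and the gene-free windows had log2 changes of -0.91 to 0.24 without the block.

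**Figure D5:**
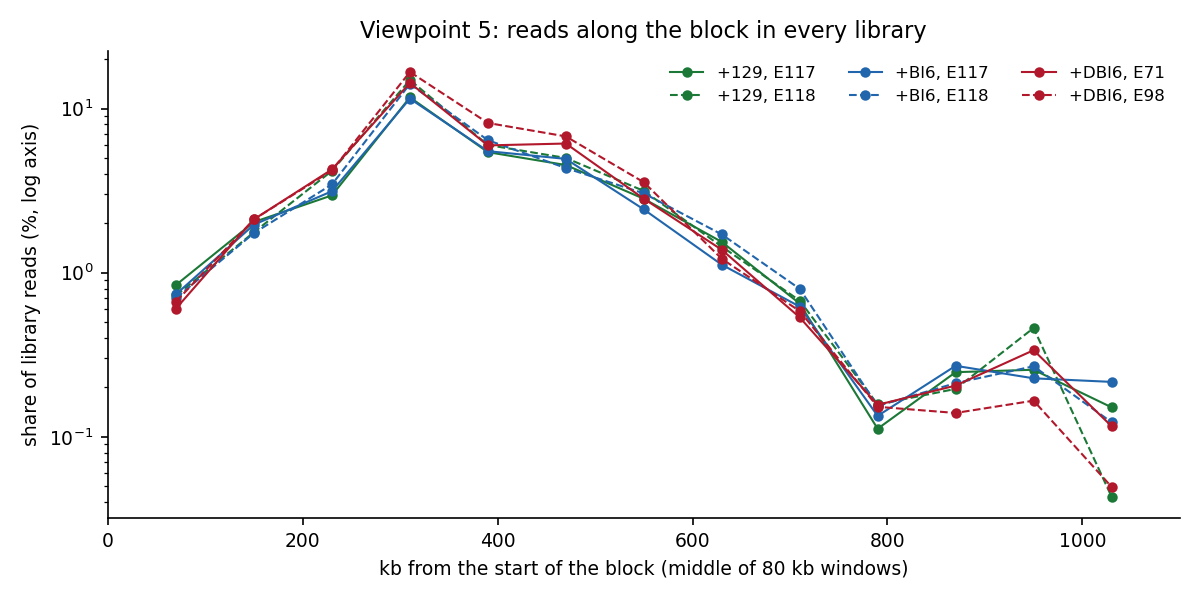
Share of library reads in each 80 kb window of the block from viewpoint 5, in percent on a log axis, against the distance in kb from the start of the block, with 1 line per library, solid for lines E71 and E117 and dashed for E98 and E118. In the window at 470 kb, with the start of Chd5, both +DBl6 libraries, at 6.12% and 6.76%, lie above the 4 control libraries, which end at 5.00%.

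The second comparison, +129 against +Bl6, sets undeleted chromosomes of the same control cells against each other. The block was called at 0 of 12 viewpoints in edgeR, and 0 had an unadjusted p under 0.05, against 0.0618% of 1619 windows of 1.1 Mb that were called. DESeq2 gave 0 calls too, against the same percentage. The estimates ran from -0.30 at viewpoint 11, or -0.10 there without line E117, to 0.42 at viewpoint 12 on the log2 scale. At viewpoint 12, +129 placed 2.79% and 3.37% of reads in the block and +Bl6 placed 2.35% and 2.50%. The groups did not overlap there, and the ratio was 1.18 in line E117 and 1.35 in line E118. The exact permutation test gave 0.33, its lower bound, and edgeR's adjusted p was 0.998 with a standard error of 0.23.

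In shares of reads, +129 and +Bl6 did not overlap at 4 of the 11 viewpoints with 2 libraries each, against 29.5% of all windows tested. The share was higher in +129 at viewpoints 6, 7 and 12 and lower at viewpoint 10. At viewpoint 10 the nearly empty E117 libraries held 2 block reads in +129 and 12 in +Bl6. At viewpoint 7 the ratio of +129 to +Bl6 was 1.09 in E117 and 1.13 in E118. At viewpoint 11 the mean shares were 0.796% ± 0.859 in +129 and 0.998% ± 0.695 in +Bl6 (SD, n = 2 each), and without the libraries of line E117 they were 1.40% and 1.49%. In windows of 80 kb, 0 of 149 block windows were called, against 0.01% of 9964, and the unadjusted p was under 0.05 in 4 of them, against 2.09% of all windows. DESeq2 called 2, both at viewpoint 9, against 0.261% of all windows. There +129 and +Bl6 are 1 combined library each.

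With the MEF line as a replicate block, edgeR called the whole block at 0 of 11 viewpoints, against 0.866% of all 1501 windows, and 0 of 136 windows of 80 kb, against 0.0522% of 9584. Unadjusted p-values under 0.05 numbered 1 and 5 in the block, against 5.46% and 3.23% of all windows. With the replicate block and total-read scaling it called the whole block at 2 of 11 viewpoints, against 1.33% of all windows. The log2 change was 0.15 at viewpoint 7 and -0.17 at viewpoint 10, where the libraries of line E117 were nearly empty. In windows of 80 kb it called 1 of 136, against 2.07% of all, at viewpoint 10. In shares of captured fragments, +129 and +Bl6 did not overlap at 1 of 11 viewpoints, viewpoint 12, against 25.4% of all windows tested.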

How the data were processed

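Per the labels and the study's methods, PE-4Cseq reads were assigned to a parental chromosome by a polymorphism in the first read, and second reads were trimmed to 30 bases and aligned with Bowtie to sequence beside HindIII sites of mm9. The files the authors deposited hold counts of uniquely mapped reads per HindIII fragment of chromosome 4, not normalized. The 16 tables of the authors' own differential regions were not used here.

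Fragment ends matched all 48319 HindIII sites of the NCBIM37 (mm9) sequence of chromosome 4, and genes came from its annotation. The members and gene lists were chosen with earlier results of these data known. Fragments within 20 kb of a viewpoint were left out. Replicate libraries whose log reads correlated above 0.9 over shared fragments beyond 1 Mb were summed, which left 66 of 72. Libraries held 444 to 3969613 reads. Counts were summed in windows of 1.1 Mb and 80 kb, kept with at least 10 reads in 50% of libraries, and tested for each viewpoint with edgeR's quasi-likelihood test (version 4.0.16, R 4.3.3, TMM scaling) on the 3 intact chromosomes together, with Benjamini-Hochberg adjustment over all windows and viewpoints of a comparison. DESeq2 (version 1.42.0) was an alternative. Shares were compared by exact permutation tests over libraries and mirrored intervals by exact sign-flip tests over lines, two-sided. The test scripts were checked on simulated data. Alternatives covered scaling, filters, captured fragments, fragments of at least 5 reads, a zone of 50 kb, other window sizes, library merging, each line left out, and the purification batch as a replicate block (kit for E71 and E117, beads for E98 and E118, as the study's methods state). For +129 against +Bl6 this pairs the alleles of 1 line. Deviations from the group means within a batch correlated above 0.1 at 2 of 12 viewpoints for +DBl6 and +Bl6 and at 6 of 12 for +129 and +Bl6. The former were viewpoints 10 (0.390) and 11 (0.549), where libraries of different groups correlated above 0.5. At viewpoint 5 the value for +DBl6 and +Bl6 was 0.065. The named fragments are the 5 captured in most libraries, and the named genes are the 20 protein-coding genes of the block. The 80 kb windows of viewpoint 5 and the division into a gene-bearing and a gene-free part were named after their values were seen.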

Additional observations from a re-analysis of the deposited data

How the results depend on the processing

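For +DBl6 against +Bl6, edgeR called the block at 0 viewpoints, and at 1 with total reads in place of TMM (viewpoint 6, log2 change 0.19, 0.803% of all windows called), with captured fragments (viewpoint 4, 0.81) and with the replicate block and total reads (viewpoint 5, 0.25), the last chosen after seeing the data. Leaving out 1 MEF line gave 0 to 1, with viewpoint 5 called without E117 and without E118. For +129 against +Bl6 the count was 0, 2 with the replicate block and total reads, and 0 to 1 with 1 line left out, with viewpoint 5 called without E117 (0.18). For block windows of 80 kb, +DBl6 against +Bl6 gave 0 calls, 2 with DESeq2, 1 without the filter (0.299% of all windows), 1 in windows of 160 kb (0.183%), 4 with the replicate block, and 0 to 4 with 1 line left out, the 4 without E98 (3.22% of all windows) at viewpoint 10. The other comparison gave 0, 2 with DESeq2, 1 with the replicate block and total reads, and 0 to 6 with 1 line left out, 6 without E71 (1.48% of all) and 3 without E98 (2.61%), all at viewpoint 10, where the E117 libraries held 444 and 1255 reads. A lone library left in a group was assumed to vary like the others. The causes were not tested. The replicate block changed no other call of the block. Against the mirrored interval, the log2 ratio turned with reads per fragment at viewpoints 4 (-1.70), 5 (-0.26) and 6 (0.78), and with a zone of 50 kb at viewpoint 5 (-0.020). At viewpoints 5 and 6 this ratio sets the stretch after the viewpoint against the stretch before it, both inside the block. The log2 change of the block had the other sign in 23 of 143 alternatives for +DBl6 and 16 of 155 for +129. At most 2 libraries a group and shared molecules limit every comparison.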
